A study of Mus musculus with 6 samples.

Results

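The 52 genes described here act in mitosis and at the kinetochore. They were given as a list of names and were matched by gene symbol to the deposited table, which listed 35434 genes. The matching used no measured value, but the list was chosen with earlier results of these data known. All 52 were found, and all 52 passed the filter on low values, an FPKM of 0.5 or more in 3 or more libraries, which left 13945 genes tested. FPKM is the number of sequenced fragments of a gene, scaled by the gene's length and by the library's mapped fragments.

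RNA sequencing was done on lesional skin of mice with psoriasis that had received regulatory T cells (Tregs). In the Ctrl-Treg group (n = 3) the mice were given control Tregs, and in the Lenv-Treg group (n = 3) they were given Tregs treated with lenvatinib, an inhibitor of receptor tyrosine kinases. All animals therefore had psoriatic lesions and a cell transfer, and a group without transferred cells was not analysed here. The sources used here give no strain, sex or age, no method of inducing psoriasis, and no dose or timing of the cells or the drug. Whether each library is a mouse of its own is not stated, and the p-values then cover only the spread among these libraries. The transferred cells cannot be recognised by any listed gene, so the groups rest on the labels alone.

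Mitosis divides duplicated chromosomes between daughter cells. Cyclin-dependent kinase 1 with its B cyclins starts it, condensin folds the chromosomes, kinetochores tie centromeres to spindle microtubules, and the spindle checkpoint holds the cell until every kinetochore is attached. The anaphase-promoting complex with CDC20 then ends the arrest, separase cuts cohesin, and the midzone and actomyosin ring complete division. Transcripts of most of these genes rise in G2 and fall after division, so in skin they are mainly found in cycling basal keratinocytes, in the hair matrix of growing follicles and in dividing immune cells.

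The mitosis transcripts were lower in the libraries labelled Lenv-Treg. Of the 52 members, 41 fell (limma, Benjamini-Hochberg adjusted p under 0.05), 0 rose and 11 did not pass the test. That is 78.8% of the members, beside 30.8% of all 13945 tested genes called lower. Of all tested genes 11% were called higher and 41.7% in either direction. The median difference (Lenv-Treg minus Ctrl-Treg) of log2(FPKM + 1) was -0.57 over the members and -0.17 over all tested genes. The fall of the 41 members ranged from 1.26-fold to 2.92-fold by mean FPKM, with a median of 1.69-fold. On this scale the change of weakly expressed genes is understated.

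Summed over the 52 members, the level was 536.0, 636.7 and 691.3 FPKM in the Ctrl-Treg libraries 1 to 3. It was 418.7, 417.0 and 459.4 FPKM in the Lenv-Treg libraries 1 to 3. The 2 groups did not overlap, and the mean was 1.44-fold lower with Lenv-Tregs (621.4 ± 78.8 against 431.7 ± 24.0 FPKM, SD, n = 3 each). Gene by gene, all 3 Lenv-Treg libraries lay below all 3 Ctrl-Treg libraries for 43 members (82.7%, beside 41% of all tested genes), the groups overlapped for 9, and none was separated in the other direction. Within the control group the libraries differed together. Ctrl-Treg 1 was the lowest control for 51 of the 52 members, and Ctrl-Treg 3 was the highest for 41. The members took 0.183% to 0.230% of the assigned reads in the control libraries and 0.126% to 0.138% in the Lenv-Treg libraries.

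**Figure D1:**
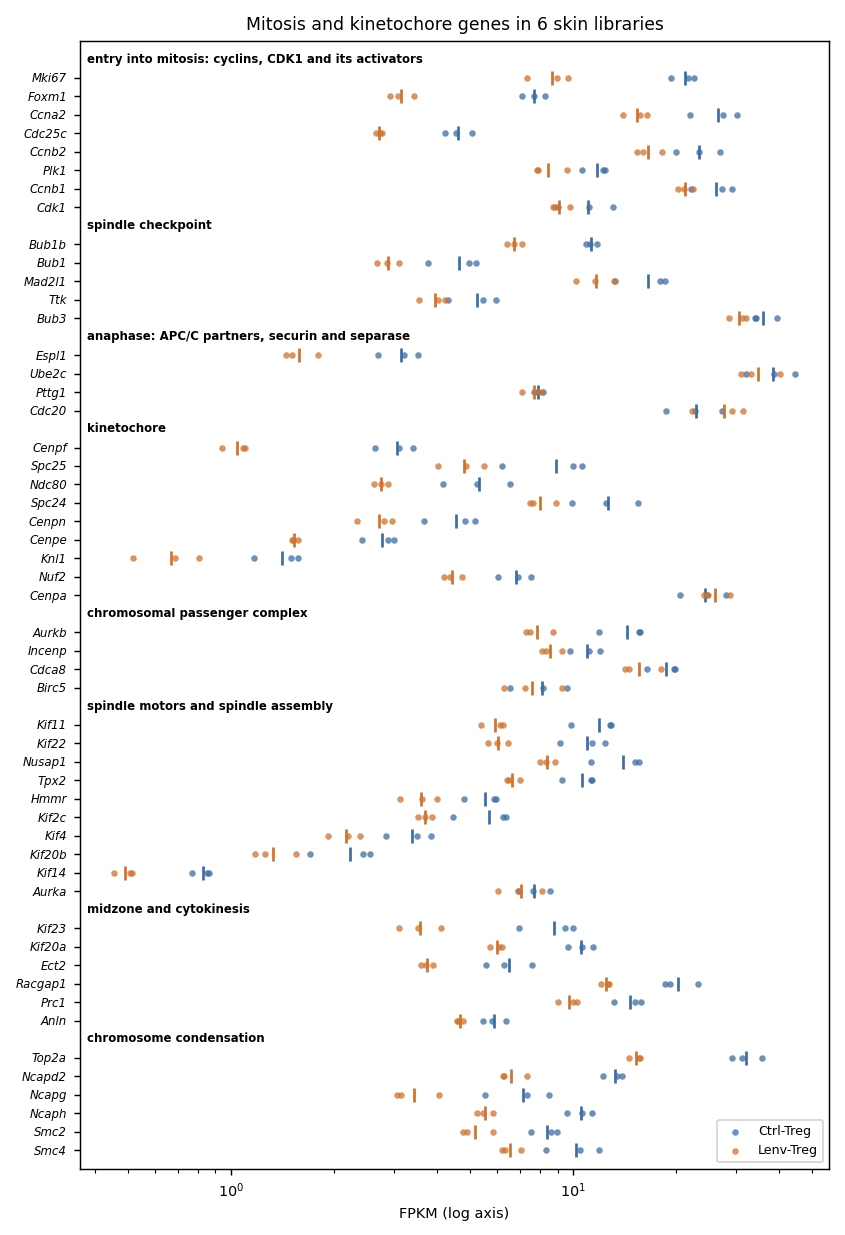
FPKM (log axis) of each of the 52 members, in rows grouped by role, with 1 point per library (blue, Ctrl-Treg; orange, Lenv-Treg; n = 3 each) and a tick at each group's mean. In 43 rows the orange points all lie left of the blue ones. Cdc20 and Cenpa are the 2 members with a higher Lenv-Treg mean. In TPM their fitted differences were -0.02 and -0.19, and neither passed the test.

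Markers of several skin cell types moved with the groups too. Summed over 15 genes of the hair follicle matrix and shaft, the level was 1468 to 3141 FPKM in the control libraries and 20.5 to 34.2 FPKM in the Lenv-Treg libraries; 13 of the 14 tested fell. Ctrl-Treg 1, the lowest control for 51 members, also had the lowest hair sum of the controls (1468 FPKM, against 3140 and 3141). Without that library 44 members were called lower. The same library had the highest control sums of activated keratinocyte (608 FPKM, against 156 and 275) and neutrophil markers (15.9 FPKM, against 8.82 and 8.74). Ctrl-Treg 2 and 3 had nearly equal hair sums, but Ctrl-Treg 3 was the highest control for 41 members and Ctrl-Treg 2 for 11. Any link of the members to these sums was not tested. Summed over 8 basal keratinocyte markers, the level was 1805 to 2188 FPKM in the controls and 6138 to 6271 FPKM in Lenv-Treg, with 4 higher and 2 lower. All 8 markers of activated keratinocytes rose (156 to 608 FPKM against 45970 to 62366 FPKM in sum), as did all 8 neutrophil markers (8.74 to 15.9 against 289 to 559 FPKM). Of 9 genes listed for neutrophil precursors, 3 were tested and 2 rose, and the others did not pass the filter on low values. The sum over all 9 was 2.56 to 5.86 FPKM in the controls and 8.31 to 17.9 FPKM in Lenv-Treg. Melanocyte markers fell in 6 of 6 (116 to 184 against 9.0 to 12.4 FPKM) and T cell markers in 2 of 6 tested, with 0 higher (16.3 to 24.0 against 11.2 to 17.4 FPKM in sum). The T cell share, 33.3%, is near the 30.8% of all tested genes called lower. No gene of any of these lists was at 0 in all 6 libraries. The part of these cell types in the fall of the mitosis genes was not tested. In bulk tissue, fewer cycling cells and less RNA per cell cannot be told apart.

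The libraries held 38704536 to 40248462 assigned reads and so differed by at most 1.04-fold in depth. Each member had between 182 and 9088 reads per library. How the libraries are scaled does move the size of the difference. Over all tested genes the deposited scale gave 1532 calls higher and 4289 lower, median-ratio scaling 2417 higher and 2417 lower, and TPM (values rescaled to one total per library) 947 higher and 7970 lower. The median of all tested genes lay at -0.17 in FPKM, 0.00 after median-ratio scaling, -0.44 in TPM and -0.01 after quantile normalization. The members' median lay below it on each scale, at -0.57, -0.40, -0.88 and -0.37. Median-ratio scaling and TPM divide each library by a constant and shift most genes nearly alike, so they could hardly change that gap. Median-ratio scaling also sets the median of all tested genes near 0. Members called lower numbered 41, 30, 48 and 25, and 0 were called higher on any of the 4 scales; the shares of all tested genes called lower were 30.8%, 17.3%, 57.2% and 16.5%.

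**Figure D2:**
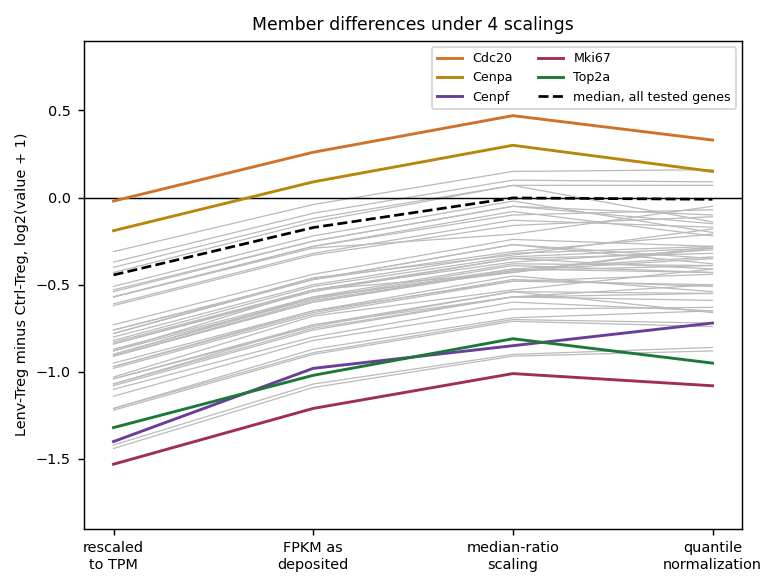
Difference (Lenv-Treg minus Ctrl-Treg, log2(value + 1)) of each member under the 4 scalings, 1 line per gene with 5 named in colour, and the median of all tested genes as a dashed line. That median runs from -0.44 in TPM to 0.00 after median-ratio scaling and -0.01 after quantile normalization, where single members move apart (Ube2c from 0.07 to -0.14, Kif20b from -0.33 to -0.18 between those 2 scales); Cdc20 and Cenpa lie below 0 in TPM and above it on the other 3 scales.

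Many of the members share 2 promoter motifs, found both in genes that fell and in genes that did not pass the test. They are shown for 8 members. The CHR (cell cycle genes homology region), TTTGAA, lies close to the start site of many genes expressed in G2 and mitosis and is bound by the MuvB core of the DREAM complex in resting cells and by MuvB with B-MYB and FOXM1 in cycling cells. CCAAT boxes upstream of it are bound by NF-Y. RefSeq promoter windows on GRCm38.p6 (300 bases, from 250 before to 50 after the start) were at hand for 43 of the 52 members, 46 windows in all. TTTGAA, read on both strands (TTCAAA on the other), was in 37 of the 46 windows (80.4%) and in 17.9% of all 32851 windows. CCAAT, read on both strands (ATTGG on the other), was in 76.1% and 37.4%, and both motifs were in 69.6% and 6.95%. Matches of the 2 motifs can share at most 1 base. The CHR was in 82.4% of the 34 windows of members that fell and in 75% of the 12 windows of members that did not pass the test. The 120 bases before the start follow, 5′ to 3′ in the direction of transcription. They are given for all 8 members with 1 window and a CHR that begins 35 to 10 bases before the start. The shares above count a match anywhere in the window, and the share of all promoters with a CHR so placed was not counted. Capitals mark TTTGAA and CCAAT on either strand.
The first 5 genes fell in Lenv-Treg. They lie at chr11:99024190-99024309 (Top2a, minus strand), chr19:37376262-37376381 (Kif11, plus strand), chr5:45669805-45669924 (Ncapg, plus strand), chr7:127042421-127042540 (Kif22, minus strand) and chr15:102296173-102296292 (Espl1, plus strand).
Top2a: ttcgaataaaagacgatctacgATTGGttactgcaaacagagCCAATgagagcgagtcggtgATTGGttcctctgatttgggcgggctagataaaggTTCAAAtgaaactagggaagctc
Kif11: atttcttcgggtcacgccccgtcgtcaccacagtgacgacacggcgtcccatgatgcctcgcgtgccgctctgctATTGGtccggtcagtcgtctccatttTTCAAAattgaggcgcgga
Ncapg: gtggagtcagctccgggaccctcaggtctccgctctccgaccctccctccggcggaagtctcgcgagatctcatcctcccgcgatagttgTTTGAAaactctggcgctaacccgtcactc
Kif22: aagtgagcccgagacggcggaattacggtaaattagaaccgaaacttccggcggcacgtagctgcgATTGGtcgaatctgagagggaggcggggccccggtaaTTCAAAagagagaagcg
Espl1: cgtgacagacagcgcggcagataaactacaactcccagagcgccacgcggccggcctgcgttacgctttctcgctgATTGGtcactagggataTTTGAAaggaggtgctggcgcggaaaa
The other 3 genes did not pass the test. They lie at chr10:69352913-69353032 (Cdk1, minus strand), chr2:164769809-164769928 (Ube2c, plus strand) and chr4:118437344-118437463 (Cdc20, minus strand).
Cdk1: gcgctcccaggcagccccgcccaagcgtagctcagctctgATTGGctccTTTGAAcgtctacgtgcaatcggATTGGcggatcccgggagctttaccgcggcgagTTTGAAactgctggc
Ube2c: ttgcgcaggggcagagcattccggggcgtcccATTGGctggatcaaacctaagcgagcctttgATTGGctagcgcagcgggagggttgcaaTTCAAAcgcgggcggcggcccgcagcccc
Cdc20: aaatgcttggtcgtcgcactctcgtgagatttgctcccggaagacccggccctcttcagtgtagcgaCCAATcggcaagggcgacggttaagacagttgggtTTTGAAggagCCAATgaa
All 8 genes have a CHR near the start because they were chosen for it. A CCAAT box begins 17 to 37 bases upstream of it in 7 of the 8 genes. Windows chosen in this way cannot show whether the layout differs between genes that fell and genes that did not pass the test. In Ncapg the nearest upstream CCAAT lay 146 bases away, outside the stretch shown. These matches describe letters in a window and not bound factors.

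Of the 8 members that act at entry into mitosis, 6 fell, 0 rose and 2 did not pass the test (median -0.53). Mki67 encodes the Ki-67 protein that coats mitotic chromosomes and serves as the usual histological mark of cycling cells. It stood at 19.3, 22.6 and 21.7 FPKM in the Ctrl-Treg libraries and at 9.0, 7.33 and 9.63 FPKM in the Lenv-Treg libraries. Every Lenv-Treg library was thus far below every control; the mean was 2.45-fold lower and the difference of -1.21 (SE 0.12, limma adjusted p = 0.000345) was the largest of the 52. Foxm1, the forkhead transcription factor that drives G2 and M genes, measured 7.11, 8.28 and 7.71 FPKM with control Tregs and 3.42, 3.09 and 2.92 FPKM with Lenv-Tregs. Its groups were equally far apart (2.45-fold, difference -1.07, SE 0.10, limma adjusted p = 0.000244, the smallest among the members). Plk1, the polo-like kinase that activates CDK1 and matures centrosomes, stood at 10.6, 12.4 and 12.2 FPKM against 7.86, 9.58 and 7.87 FPKM. The groups did not overlap and Plk1 fell by 0.44 (SE 0.11, limma adjusted p = 0.0174), but the call ended after median-ratio scaling (-0.24, adjusted p = 0.130), after quantile normalization (-0.28, adjusted p = 0.0913), and without Ctrl-Treg 2 (adjusted p = 0.0571), Ctrl-Treg 3 (0.0546) or Lenv-Treg 3 (0.0562). The S and G2 cyclin Ccna2 (-0.74), the B cyclin Ccnb2 (-0.47) and the CDK1-activating phosphatase Cdc25c (-0.59) also fell. The call for Ccnb2 ended after median-ratio scaling (limma adjusted p = 0.111) and without Ctrl-Treg 2 (0.0554), Ctrl-Treg 3 (0.060), Lenv-Treg 2 (0.0772) or Lenv-Treg 3 (0.0629). After median-ratio scaling 4 of the 8 members were called lower, and after quantile normalization 5.

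The remaining members of this role are the core of the mitotic engine, and neither passed the test. Ccnb1, the main B cyclin and the most abundant member of this role over all 6 libraries, stood at 22.1, 27.2 and 29.2 FPKM in the controls and at 22.4, 20.2 and 21.1 FPKM in Lenv-Treg. The lowest control lay among the Lenv-Treg values, and the difference of -0.28 (SE 0.12, limma adjusted p = 0.0953) did not pass. Cdk1, the kinase that B cyclins activate, measured 9.05, 11.1 and 13.1 FPKM against 8.84, 8.71 and 9.77 FPKM. These groups overlapped as well (-0.25, SE 0.13, limma adjusted p = 0.175). Both were called lower after rescaling to TPM (-0.57 and -0.53, limma adjusted p = 0.00634 and 0.00917), and also without Ctrl-Treg 1 (-0.39 and -0.37, adjusted p = 0.0261 and 0.044). With sample weights Ccnb1 was called lower too (limma adjusted p = 0.0398). The ratio of Ccnb1 to Mki67 in FPKM, a pair chosen after its values were seen, was 1.14 to 1.34 in the control libraries and 2.19 to 2.75 in the Lenv-Treg libraries.

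**Figure D3:**
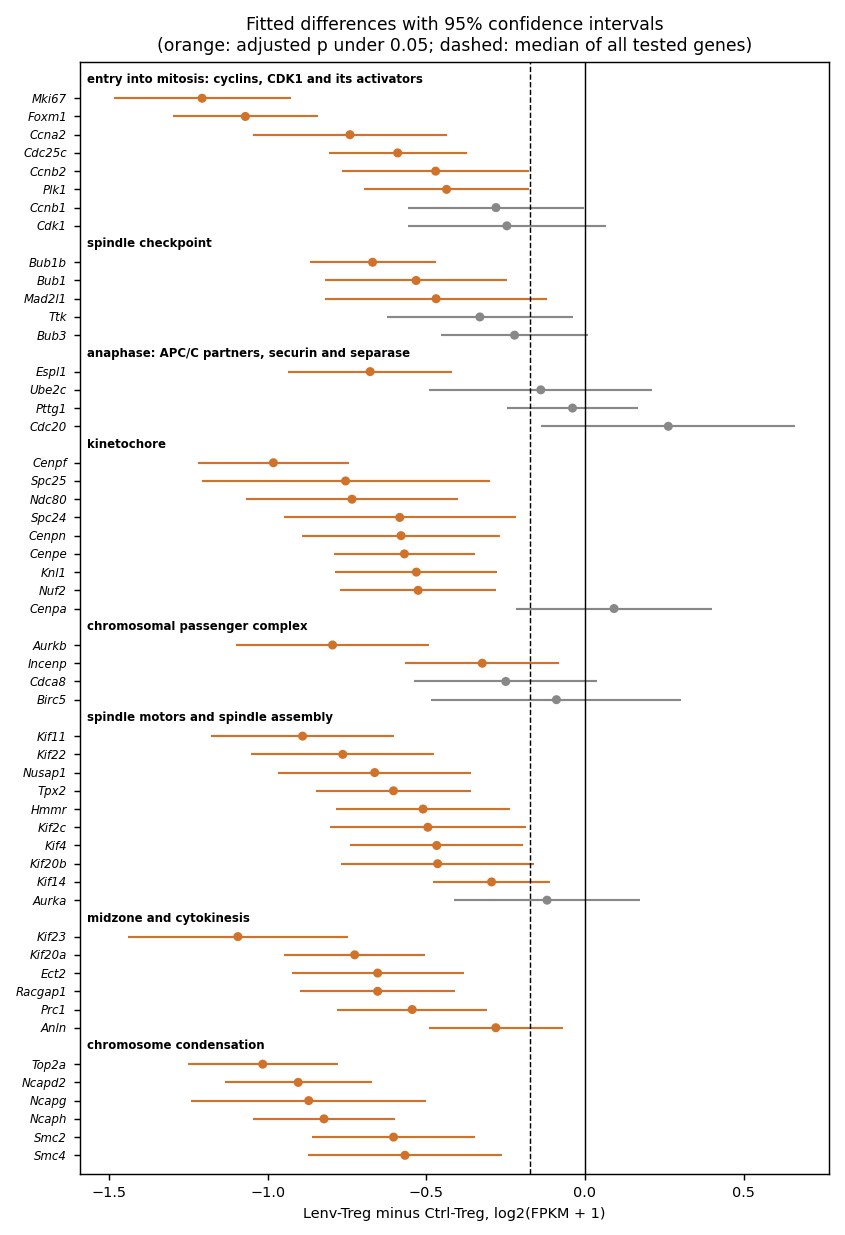
Difference (Lenv-Treg minus Ctrl-Treg) of log2(FPKM + 1) for each of the 52 members, with its 95% confidence interval from limma, grouped by role; orange points passed the test, and the dashed line is the median of all tested genes (-0.17). The 6 condensation and 6 midzone members all fell, and Cdc20 and Cenpa are the only points above 0. In TPM their differences were -0.02 and -0.19, and neither passed the test.

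In the chromosome condensation group, 6 of 6 members fell (median -0.85), the lowest median of the 8 roles; 5 of 6 were still called after median-ratio scaling. Top2a, the topoisomerase that untangles sister chromatids, stood at 29.2, 31.2 and 35.7 FPKM in the control libraries. With Lenv-Tregs it stood at 15.6, 15.6 and 14.6 FPKM. The groups were widely separated, with a mean 2.09-fold lower (difference -1.02, SE 0.10, limma adjusted p = 0.000352). The condensin I subunit Ncapd2 measured 12.3, 13.5 and 13.9 FPKM against 7.31, 6.28 and 6.22 FPKM. No Lenv-Treg library came near the controls (-0.90, SE 0.10, limma adjusted p = 0.000521). The other condensin I subunits Ncapg (-0.87) and Ncaph (-0.82) fell by about as much, and the SMC ATPases of both condensins, Smc2 (-0.60) and Smc4 (-0.57), by less; the difference between subunits was not tested. The call for Smc4 ended after median-ratio scaling (-0.38, limma adjusted p = 0.05 as rounded, not under the threshold) and after quantile normalization (0.0623).

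At the kinetochore, 8 of 9 members fell and 1, Cenpa, did not pass the test (median -0.58). Cenpf, a large coiled-coil protein of the outer kinetochore that accumulates in G2, stood at 2.64, 3.10 and 3.39 FPKM in the controls. In Lenv-Treg it stood at 1.10, 0.942 and 1.09 FPKM. Its mean was 2.92-fold lower, the largest fold of the 52 members, and the groups were far apart (difference -0.98, SE 0.10, limma adjusted p = 0.000415). Spc25, a subunit of the NDC80 complex that grips microtubules, measured 6.21, 10.6 and 9.97 FPKM against 4.85, 4.03 and 5.5 FPKM. Here Ctrl-Treg 1 lay nearer to the Lenv-Treg libraries than to the other controls. Spc25 fell by 0.75 (SE 0.19, limma adjusted p = 0.0184), and the call ended without Ctrl-Treg 2 (adjusted p = 0.0541), Ctrl-Treg 3 (0.0545) or Lenv-Treg 2 (0.0676), after quantile normalization (0.0686) and with no filter on low values (0.0539).

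The rest of the NDC80 complex fell as well, with Ndc80 at -0.73, Nuf2 at -0.53 and Spc24 at -0.58. The call for Spc24 ended after median-ratio scaling (limma adjusted p = 0.0839) and quantile normalization (0.0786), with no filter (0.0546), and without Ctrl-Treg 2 (0.0533), Ctrl-Treg 3 (0.0503), Lenv-Treg 1 (0.0606) or Lenv-Treg 2 (0.0716). Knl1, the scaffold that recruits checkpoint proteins, fell by 0.53, the motor Cenpe by 0.57 and the centromere-linked Cenpn by 0.58. After quantile normalization 3 of the 9 kinetochore members were called lower, and the calls for Nuf2, Knl1 and Cenpn ended (limma adjusted p = 0.0553, 0.067 and 0.0847). Cenpa, the histone H3 variant that marks centromeres, stood apart from them. It measured 20.5, 24.6 and 28.0 FPKM in the controls and 24.2, 24.7 and 28.7 FPKM in Lenv-Treg. The groups overlapped, and the difference was 0.09 in FPKM (SE 0.13, 95% interval -0.22 to 0.40, limma adjusted p = 0.603) and -0.19 in TPM. As a pair chosen after its values were seen, the ratio of Cenpa to Cenpf was 7.77 to 8.26 in the control libraries and 22.0 to 26.5 in the Lenv-Treg libraries.

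The spindle checkpoint had 3 of 5 members lower and 2 not called (median -0.47); 2 were called after median-ratio scaling and 1 after quantile normalization. Bub1b, which encodes BUBR1, the checkpoint protein that holds back CDC20, stood at 10.9, 11.7 and 11.2 FPKM in the controls and at 7.06, 6.41 and 6.72 FPKM in Lenv-Treg. Replicates of each group were close together and the groups were well separated (1.68-fold, difference -0.67, SE 0.08, limma adjusted p = 0.000952). Bub1, the kinase that marks centromeres for cohesin protection, stood at 3.76, 4.97 and 5.18 FPKM against 2.86, 2.67 and 3.10 FPKM. It fell by 0.53 without overlap (SE 0.12, limma adjusted p = 0.0121), though not after quantile normalization (adjusted p = 0.107). Mad2l1, the MAD2 protein of the checkpoint complex, fell by 0.47 (limma adjusted p = 0.0396). That call ended after median-ratio scaling (adjusted p = 0.173) and quantile normalization (0.109), with no filter (0.0836), and without Ctrl-Treg 2 (0.111), Ctrl-Treg 3 (0.111), Lenv-Treg 1 (0.0846) or Lenv-Treg 2 (0.131). Bub3, which brings BUB1 and BUBR1 to the kinetochore and was the most abundant of the 5, stood at 34.1, 34.2 and 39.4 FPKM against 28.6, 32.1 and 31.1 FPKM. Its groups did not overlap, yet the difference was only -0.22 (SE 0.10, limma adjusted p = 0.110). Ttk, the kinase that starts checkpoint signalling, likewise had separate groups and did not pass (-0.33, limma adjusted p = 0.0687). Both Bub3 and Ttk were called lower in TPM (limma adjusted p = 0.00264 and 0.00536), and Ttk also without Ctrl-Treg 1 (-0.44, adjusted p = 0.0234) and with sample weights (0.0434).

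The anaphase group had the smallest share of calls of the 8 roles, with 1 of 4 members lower, 3 not called and a median of -0.09. That median was 0.11 after median-ratio scaling, 0.01 after quantile normalization and -0.37 in TPM, where 2 of the 4 were called lower. Espl1, which encodes separase, the protease that cuts cohesin, was the one that fell. It stood at 2.68, 3.53 and 3.20 FPKM in the controls and at 1.79, 1.45 and 1.5 FPKM in Lenv-Treg, without overlap (1.98-fold, difference -0.68, SE 0.11, limma adjusted p = 0.00281). Ube2c, the ubiquitin-conjugating enzyme of the anaphase-promoting complex, was the most abundant of all 52 members. It stood at 32.0, 38.6 and 44.6 FPKM in the controls and at 30.8, 33.0 and 40.2 FPKM in Lenv-Treg. The spread inside each group was wider than the gap between them, at a difference of -0.14 in FPKM (SE 0.15, limma adjusted p = 0.483), 0.07 after median-ratio scaling and -0.43 in TPM (adjusted p = 0.0190).

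Cdc20, the activator of the anaphase-promoting complex and the target of the checkpoint, had the highest difference of the 52. It stood at 18.6, 22.7 and 27.2 FPKM in the controls and at 22.3, 29.0 and 31.4 FPKM in Lenv-Treg. The groups overlapped, and the difference was 0.26 in FPKM (SE 0.17, 95% interval -0.14 to 0.66, limma adjusted p = 0.251) and -0.02 in TPM. In RefSeq's annotation Cdc20 overlaps Elovl1, a fatty acid elongase gene, which rose from a mean of 33.7 to 65.4 FPKM (difference 0.94, limma adjusted p = 0.00179). Whether the counting used strand is not given in the sources used here, so reads from the shared stretch could not be assigned with certainty, and the share of Elovl1 in the Cdc20 value was not tested. Pttg1, the securin that holds separase inactive, did not pass either, with a difference of -0.04 in FPKM (limma adjusted p = 0.746) and 0.15 after median-ratio scaling. In TPM its difference was -0.31 (limma adjusted p = 0.0512).

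Of the 4 subunits of the chromosomal passenger complex, which corrects faulty attachments and then moves to the midzone, 2 fell and 2 did not pass the test (median -0.29), and 1 was called lower after median-ratio scaling or quantile normalization. Its kinase, Aurkb, stood at 11.9, 15.6 and 15.7 FPKM in the controls and at 7.26, 7.49 and 8.72 FPKM in Lenv-Treg. The groups were clearly apart (1.84-fold, difference -0.80, SE 0.13, limma adjusted p = 0.00286). The scaffold subunit Incenp measured 9.82, 11.1 and 12 FPKM against 8.09, 8.34 and 9.26 FPKM. Its groups were adjacent without overlap and it fell by 0.32 (SE 0.10, limma adjusted p = 0.0407). The call ended after median-ratio scaling (adjusted p = 0.345) and quantile normalization (0.251), with no filter (0.0604), and without Ctrl-Treg 2 (0.104), Ctrl-Treg 3 (0.125), Lenv-Treg 1 (0.10) or Lenv-Treg 2 (0.120). Cdca8, which encodes borealin, the subunit that helps target the complex to centromeres, stood at 16.5, 19.7 and 19.8 FPKM against 14.5, 14.2 and 18 FPKM. The highest Lenv-Treg library reached into the control range (-0.25, SE 0.12, limma adjusted p = 0.142; -0.54 and adjusted p = 0.00573 in TPM). Survivin, encoded by Birc5, overlapped throughout, with a mean of 8.12 ± 1.53 FPKM in the controls and 7.57 ± 1.53 FPKM in Lenv-Treg (SD, n = 3 each). Its difference was -0.09 in FPKM and 0.10 after median-ratio scaling (limma adjusted p = 0.693 and 0.680). In TPM the difference was -0.37 (limma adjusted p = 0.0661). The ratio of Birc5 to Aurkb, a pair chosen after its values were seen, was 0.525 to 0.612 in the control libraries and 0.862 to 1.06 in the Lenv-Treg libraries.

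Among the spindle motors and assembly factors, 9 of 10 fell and 1, Aurka, did not pass (median -0.50). After median-ratio scaling 5 of the 10 were called (median -0.33) and after quantile normalization 4 (median -0.28). Kif11, the Eg5 motor that pushes spindle poles apart, stood at 9.87, 12.8 and 12.9 FPKM in the controls and at 6.11, 5.38 and 6.25 FPKM in Lenv-Treg. The groups were widely separated (2.01-fold, difference -0.89, SE 0.12, limma adjusted p = 0.00141). Kif22, the chromokinesin that moves chromosome arms outward, stood at 9.15, 11.4 and 12.4 FPKM against 6.46, 5.98 and 5.62 FPKM, again with a clear gap (-0.76, SE 0.12, limma adjusted p = 0.00269). Nusap1, which bundles microtubules near chromatin, was the most abundant of the group at 11.3, 15.1 and 15.6 FPKM against 8.86, 8.02 and 8.31 FPKM. All Lenv-Treg libraries lay below the lowest control (-0.66, SE 0.13, limma adjusted p = 0.00643). The Aurora A activator Tpx2 fell by 0.60, while Aurora A itself, Aurka, differed by -0.12 in FPKM (limma adjusted p = 0.470), by 0.07 after median-ratio scaling and by -0.40 in TPM (adjusted p = 0.0193). Aurka over Tpx2, another pair chosen after its values were seen, was 0.678 to 0.752 in the controls and 0.944 to 1.16 in Lenv-Treg. On the log2(FPKM + 1) scale the remaining motors fell by 0.29 (Kif14, the member with the fewest reads) to 0.50 (the depolymerase Kif2c). By mean FPKM the order was reversed, at 1.69-fold (Kif14), 1.68-fold (Kif20b), 1.56-fold (Kif4) and 1.54-fold (Kif2c). The calls for Kif14, Kif20b, Kif2c and Kif4 each ended in at least 3 of the 6 fits that left out a library. Their limma adjusted p reached 0.0612, 0.0868, 0.0721 and 0.0548 in those fits. Those 4 calls also ended after median-ratio scaling (limma adjusted p = 0.0702, 0.0732, 0.0757 and 0.0589) and after quantile normalization (0.652, 0.308, 0.138 and 0.175). Hmmr, a spindle pole protein, fell by 0.51, with the call ending after quantile normalization (limma adjusted p = 0.0753).

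All 6 midzone and cytokinesis members fell (median -0.65). Kif23, the motor subunit of centralspindlin, stood at 6.96, 9.49 and 9.97 FPKM in the controls and at 3.51, 3.10 and 4.10 FPKM in Lenv-Treg. Even the lowest control exceeded the highest Lenv-Treg library by a wide margin (2.47-fold, difference -1.09, SE 0.15, limma adjusted p = 0.00128). Its partner Racgap1, the most abundant of the group, stood at 18.5, 19.3 and 23.1 FPKM against 12.7, 12.1 and 12.7 FPKM. The Lenv-Treg libraries were nearly identical to each other and all below the controls (-0.65, SE 0.10, limma adjusted p = 0.00256). Kif20a, the kinesin that brings the passenger complex to the midzone, stood at 9.64, 10.6 and 11.4 FPKM against 6.21, 6.05 and 5.70 FPKM. It fell without overlap (-0.73, SE 0.10, limma adjusted p = 0.00109), and so did Cdc23 and Brd8, the genes it overlaps in RefSeq's annotation (-0.65 and -0.53). Ect2, the exchange factor that activates RhoA at the cleavage site, fell by 0.65 and the microtubule bundler Prc1 by 0.54. Anln, the anillin scaffold of the ring, fell least, by 0.28 (SE 0.09, limma adjusted p = 0.0409). Its call ended without any 1 library other than Ctrl-Treg 1 (adjusted p from 0.0863 to 0.134), with no filter (0.0551), and after median-ratio scaling (0.393) and quantile normalization (0.620).

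The 11 members that did not pass the test were Ttk, Ccnb1, Bub3, Cdca8, Cdk1, Cdc20, Aurka, Ube2c, Cenpa, Birc5 and Pttg1. Their adjusted p ranged from 0.0687 to 0.746, which does not show that they were level. Several of them have short transcripts. Of the 6 members with a gene length under 2000 bases, as recovered from the FPKM steps, 2 were called and Cdc20, Ube2c, Cenpa and Cdca8 were not. From 2000 to under 3000 bases 11 of 15 were called, from 3000 to under 6000 bases 19 of 22, and from 6000 bases up 9 of 9. The median differences in these 4 classes were -0.19, -0.58, -0.63 and -0.57 for members and -0.05, -0.14, -0.19 and -0.25 for all tested genes. Across genes, length and difference had a Spearman correlation of -0.308 over the 52 members and -0.161 over 13934 tested genes; the genes share the same 6 libraries. The part of gene length in the members' differences was not tested.

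**Figure D4:**
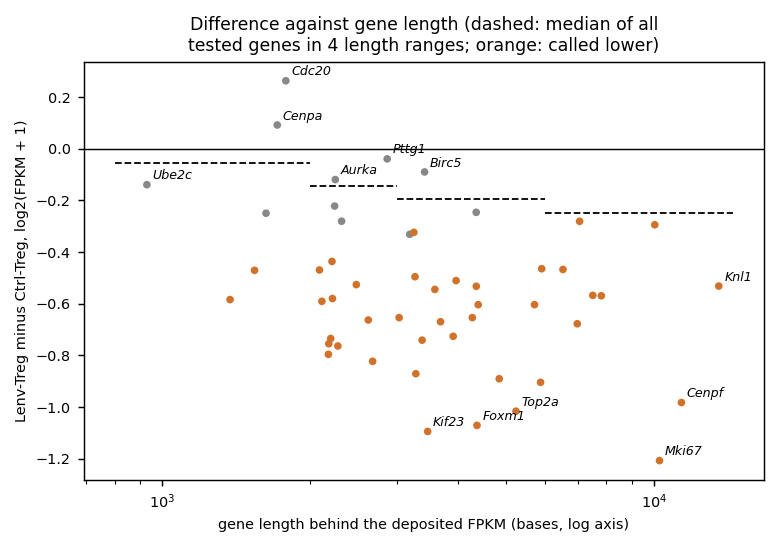
Difference (Lenv-Treg minus Ctrl-Treg, log2(FPKM + 1) scale) against gene length in bases on a log axis, 1 point per member (orange, called lower; grey, not called), with the median of all tested genes in each of 4 length classes as dashed lines. Cdc20, Ube2c, Cenpa and Cdca8 lie among the 6 members under 2000 bases, and all 9 members of 6000 bases or more were called lower.

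Genes outside the 52 were grouped into lists of other cell cycle steps. Among 69 other mitosis genes, 40 fell and 1 rose (median -0.40). The lower calls are 58%, beside 30.8% of all tested genes. The count of lower calls was 19 of 69 after median-ratio scaling, 16 after quantile normalization and 54 in TPM. The shares of all tested genes called lower on those scales were 17.3%, 16.5% and 57.2%. The largest differences on the log2(FPKM + 1) scale, which understates weakly expressed genes, were those of Pimreg, a mitotic regulator, from 5.73 ± 0.663 to 1.89 ± 0.338 FPKM, and of Ska2, a subunit of the kinetochore SKA complex, from 7.65 ± 1.23 to 3.39 ± 0.350 FPKM (SD, n = 3 each). Zwint, a kinetochore protein that binds KNL1, was the one that rose (14.6 to 18 FPKM, difference 0.28, limma adjusted p = 0.0420), and in TPM none of the 69 was called higher. The most abundant genes of the list, Ube2s and Cks1b, differed by -0.02 and 0.01. Of 14 subunits of the anaphase-promoting complex 5 fell and 0 rose (median -0.25), among them Cdc23 (-0.65) and Anapc5 (-0.55). That is 35.7%, near the 30.8% of all tested genes called lower, and the count was 2 after median-ratio scaling, 3 after quantile normalization and 11 in TPM. Cohesin had 8 of 9 genes lower (88.9%, median -0.47), among them Pds5b (-0.73), Smc1a (-0.61) and Rad21 (-0.44). The count was 3 of 9 after median-ratio scaling and 5 of 9 after quantile normalization.

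Of 36 DNA replication genes, 28 fell and 0 rose on the deposited scale, with a median of -0.60. The lower calls are 77.8%, beside 30.8% of all tested genes. Lower calls numbered 19 after median-ratio scaling, 21 after quantile normalization, where 1 gene was called higher, and 34 in TPM. The shares of all tested genes called lower on those scales were 17.3%, 16.5% and 57.2%. Uhrf1, which guides maintenance methylation, fell from 20.9 ± 2.26 to 7.34 ± 1.30 FPKM (difference -1.40, limma adjusted p = 0.000329), and the polymerase subunit Pold1 fell from 5.89 ± 0.434 to 2.56 ± 0.256 FPKM (-0.95). The sliding clamp Pcna went from 121.2 ± 13 to 80.5 ± 1.41 FPKM (-0.58) and the ribonucleotide reductase subunit Rrm1 from 31.6 ± 1.58 to 22.2 ± 0.922 FPKM (-0.49; SD, n = 3 each). Of 16 G1 and S phase cyclins, kinases and E2F factors, 9 fell (56.2%) and 0 rose (median -0.48). After quantile normalization 8 were called lower and 3 higher. The largest differences on the log2(FPKM + 1) scale were those of 2 D cyclins: Ccnd2 went from 39.4 ± 5.23 to 5.25 ± 0.587 FPKM (difference -2.69, limma adjusted p = 2.73e-05) and Ccnd1 from 54.5 ± 8.36 to 15.8 ± 1.79 FPKM (-1.72), while their partner kinase Cdk4 went from 136.8 ± 15.4 to 87.8 ± 9.08 FPKM (-0.63). The other D cyclin, Ccnd3, named after its values were seen, differed by -0.21 and did not pass (limma adjusted p = 0.185).

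The brakes on the cell cycle were mixed, with 2 of 17 higher and 6 lower on the deposited scale (6 higher and 5 lower after median-ratio scaling, 0 higher and 9 lower in TPM). The lower calls are 35.3%, near the 30.8% of all tested genes called lower, and 11% of all tested genes were called higher. Cdkn1a, which encodes the CDK inhibitor p21, rose from 89.4 ± 9.49 to 124.1 ± 5.65 FPKM (SD, n = 3 each, difference 0.47, limma adjusted p = 0.0134), and Cdkn3, a phosphatase that acts on CDKs, rose by 0.44 (adjusted p = 0.020). The CDK4 inhibitors Cdkn2c (-1.47) and Cdkn2b (-0.73) fell. Of 12 DREAM, MuvB and NF-Y genes, some of whose products bind the motifs shown above, 5 fell and 0 rose (median -0.31). That is 41.7%, beside 30.8% of all tested genes called lower. After median-ratio scaling 1 was lower and 2 were higher, where 17.3% of all tested genes were called lower. Rbbp4, a histone-binding subunit of MuvB, fell from 50.2 ± 4.15 to 35 ± 0.529 FPKM (-0.51) and the NF-Y subunit Nfyb by 0.49, while E2f4 differed by 0.19 (limma adjusted p = 0.160).

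**Figure D5:**
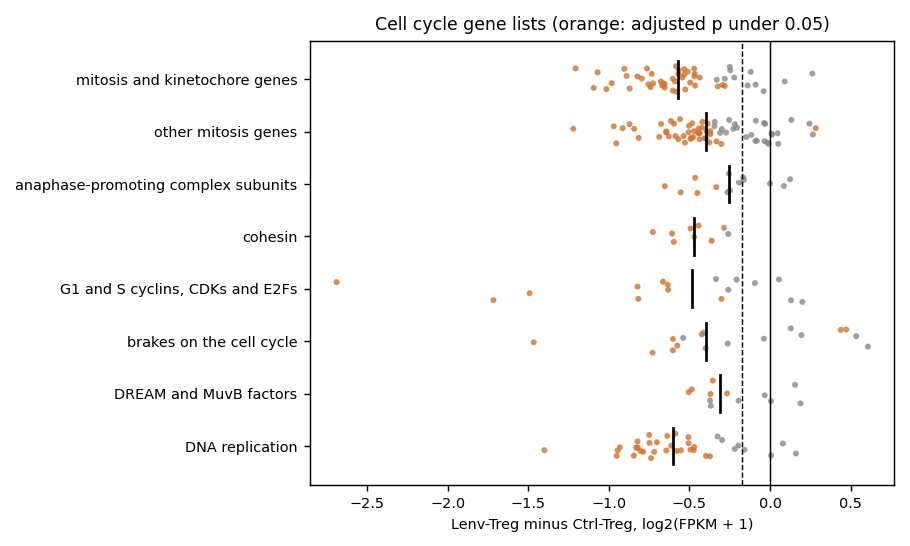
Differences (Lenv-Treg minus Ctrl-Treg, log2(FPKM + 1) scale) of the genes in the member set and in each cell cycle list, 1 point per gene (orange, adjusted p under 0.05), with each list's median as a bar and the median of all tested genes as a dashed line. Medians are -0.57 for the members, -0.60 for DNA replication, -0.40 for other mitosis genes and -0.17 for all tested genes on the deposited scale.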

How the data were processed

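Total RNA from 6 skin samples was sequenced. The deposited table holds FPKM per gene, computed by the authors; the build is GRCm39 per the submitters' processing notes, with aligner, counter, annotation and strand setting not given in the sources used here. All 6 columns matched the samples' titles. Whole reads were recovered from the FPKM steps for 99.92% of tested genes (within 0.005 reads plus 1.5e-07 per read) and gave depths and gene lengths.

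Genes with FPKM of at least 0.5 in at least 3 libraries were tested on log2(FPKM + 1) with limma 3.58.1 in R 4.3.3 (lmFit, eBayes with a variance trend, two-sided), adjusted over all 13945 genes, at 0.05. Folds are ratios of mean FPKM. The read recovery and the fit were tested on simulated data. Alternatives changed the pseudocount (0.1, 0.5), filter, scaling, variance model and block, used voom on the recovered reads, or left out each library.

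Members and lists were chosen with earlier results of these data known. Per role, values are given for the most abundant member, the 2 with the largest difference and the one with the smallest p, and for Mki67, Foxm1, Cdk1, Ccnb1, Plk1, Aurkb, Top2a and Bub3. Promoters are RefSeq's (GRCm38.p6, not the authors' build). Of the members, 7 overlap another gene with FPKM of at least 1 (Aurka, Ccna2, Cdc20, Cenpn, Kif20a, Nusap1, Prc1).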

Additional observations from a re-analysis of the deposited data

How the results depend on the processing

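Over 18 alternatives, 24 of the 41 members called lower kept the call in every one, 17 lost it in at least 1, and none reversed. Members called lower numbered 25 after quantile normalization and 30 to 44 when 1 library was left out (30 without Ctrl-Treg 3, 44 without Ctrl-Treg 1). Members called higher were 0 in each of those leave-one-out fits and 1, Cdc20, with the replicate number as a block. The members' median was -0.40 after median-ratio scaling, -0.88 in TPM, -0.37 after quantile normalization and -0.70 by voom, and -0.64 to -0.50 with 1 library left out. Tested genes called higher and lower numbered 2417 and 2417 after median-ratio scaling and 947 and 7970 in TPM; 2304 were lower after quantile normalization. With 1 library left out, 1152 to 1447 were higher and 2780 to 3900 lower, the fewest without Lenv-Treg 2.

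Among members not called, 6 changed sign: after median-ratio scaling Ube2c (0.07), Pttg1 (0.15), Birc5 (0.10) and Aurka (0.07); in TPM Cdc20 (-0.02) and Cenpa (-0.19); after quantile normalization Pttg1 (0.16), Birc5 (0.09) and Aurka (0.07). With 1 library left out, Cenpa ranged from -0.02 (without Ctrl-Treg 1) to 0.19, Birc5 from -0.23 to 0.03 (above 0 without Ctrl-Treg 3 or Lenv-Treg 1), and Pttg1 from -0.08 to 0.01 (without Lenv-Treg 2). The cause was not tested. Whether the replicate numbers pair the samples is not stated. Same-number correlations of deviations were 0.196, -0.0109 and 0.328. Numbers 1 and 3 correlated best with their own number, and Ctrl-Treg 2 with Lenv-Treg 1 (0.0843). So few libraries cannot settle a pairing. With the replicate number as a block 41 members were called lower: 40 of the 41 above, without Anln (limma adjusted p = 0.0606) and with Ttk (0.0398). Cdc20 was called higher there at 0.0487. Kif14 was not tested at a filter of FPKM 1.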
